A study of Homo sapiens with 6 samples.

Results

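Polycomb repressive complex 2 (PRC2) was followed at the transcript level in COV434 cells through 10 genes, EZH1, EZH2, EED, SUZ12, RBBP4, MTF2, PHF1, PHF19, JARID2 and AEBP2. They were taken by gene symbol from the deposited table of 16798 genes, all 10 were found, and all 10 were among the 12368 genes with enough counts for a test. Total RNA was sequenced from 3 control samples, labelled as wild type, and from 3 samples treated with 15 µM 4HC for 24 h. 4HC is the active metabolite of the alkylating drug cyclophosphamide (CTX), and the labels write "CTX" in the genotype field of the treated samples, naming an agent and not an allele. The comparison asked what 4HC did to the RNA of these genes, and the samples carry no vehicle label.

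COV434 is labelled as a granulosa cell line, and as background it has since been reassigned to small cell carcinoma of the ovary, hypercalcemic type, a tumor that lacks the SWI/SNF ATPases SMARCA4 and SMARCA2. Of 14 granulosa markers, 12 were in the table and 4 reached a mean of 1 TPM in control (WT1 133, HSD17B1 22.5, AMH 5.34 and INHA 1.18 TPM). TPM is a transcript level per length, scaled to a fixed total per sample. The granulosa genes FOXL2, FSHR, CYP19A1, NR5A1, STAR and INHBB had at most 3 counts in each of the 6 samples, and INHBA and FST were under 1 TPM. AMHR2 and CYP11A1 were not found under those symbols in the table. The granulosa markers were thus mixed in these data, with FOXL2, FSHR and CYP19A1 nearly absent and WT1, HSD17B1, AMH and INHA detected. WT1 fell by 0.35 on the log2 scale in 4HC. SMARCA4 was at 7.56 TPM and SMARCA2 at 0.03 TPM in control. SWI/SNF and PRC2 are known to act against each other at many genes, and tumors of this kind have been studied for their need of EZH2. Summed levels of markers listed for other cell types overlapped between the groups. Epithelial genes were at 6.36 to 8.57 TPM in control and 7.72 to 8.16 in 4HC, and fibroblast genes at 136 to 145 and 137 to 138. Leukocyte genes were at 2.28 to 2.42 and 2.38 to 3.25, and endothelial genes at 0.18 to 0.33 and 0.3 to 0.39. The fibroblast sum came mostly from COL3A1 (85.1 TPM in control), LUM (43.2) and DCN (11.5). COL1A1, COL1A2 and PDGFRB had control means under 1 TPM. Whether these genes come from the line itself was not tested. None of the 9 genes tested from the lists of other cell types passed edgeR's test, with 0 at an unadjusted p under 0.05 and 0 by DESeq2. Depth was 16133786 to 16702316 expected counts per sample.

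PRC2 places methyl groups on lysine 27 of histone H3 (H3K27), and the trimethylated form, H3K27me3, marks silent developmental genes. EZH2 and EZH1 are the alternative catalytic subunits, EED reads H3K27me3 and stimulates the enzyme, SUZ12 is the scaffold, and RBBP4 is a histone binding subunit shared with other chromatin complexes. The Polycomb-like proteins MTF2, PHF1 and PHF19 define the form PRC2.1, and JARID2 with AEBP2 defines PRC2.2. EZH2 and EED are known to be driven by E2F factors in dividing cells, while EZH1 is also used in cells that do not divide.

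Promoter sequences of the 4 genes that rose (EZH2, EZH1, EED and PHF1) and of a pair that did not pass the test but carry an E2F motif (SUZ12 and MTF2) are shown so that their letters can be read beside the changes. The windows come from RefSeq on GRCh38.p14, run 5′ to 3′ on the strand of the gene, and are parts of the 300 bases from 250 before to 50 after each start site. Capitals mark matches to an E2F motif (TTTCCCGC, TTTCGCGC, TTTGCCGC or TTTGGCGC) or to the CCAAT box, on either strand, so that GCGGGAAA or GCGGCAAA is an E2F motif read from the other strand. A CCAAT box read that way appears as ATTGG.
EZH2 (chr7:148884282.0-148884421.0, minus strand): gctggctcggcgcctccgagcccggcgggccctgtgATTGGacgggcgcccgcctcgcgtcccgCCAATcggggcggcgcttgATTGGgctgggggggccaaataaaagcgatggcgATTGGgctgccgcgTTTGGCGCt
EZH1 (chr17:42745101.0-42745170.0, minus strand): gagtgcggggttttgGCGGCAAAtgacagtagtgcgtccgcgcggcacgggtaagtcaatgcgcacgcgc
EED (chr11:86244653.0-86244752.0, plus strand): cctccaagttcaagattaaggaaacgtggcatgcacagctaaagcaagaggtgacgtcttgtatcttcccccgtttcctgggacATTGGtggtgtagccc
PHF1 (chr6:33410914.0-33411013.0, plus strand): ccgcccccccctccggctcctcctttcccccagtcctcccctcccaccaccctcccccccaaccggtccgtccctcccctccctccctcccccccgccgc
SUZ12 (chr17:31936802.0-31936871.0, plus strand): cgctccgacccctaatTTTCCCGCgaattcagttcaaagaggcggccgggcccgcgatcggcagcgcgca
MTF2 (chr1:93079223.0-93079295.0, plus strand): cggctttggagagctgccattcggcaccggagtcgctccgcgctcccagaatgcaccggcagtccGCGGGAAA
The EZH2 window held an E2F motif 2 to 9 bases after the start and CCAAT boxes beginning at -94, -66, -47 and -13. EZH1 had its E2F motif at -115 to -108, SUZ12 at -189 to -182 and MTF2 at 6 to 13, whereas EED had 1 CCAAT box at -16 to -12 and PHF1 no match. These RefSeq start sites can differ from the GENCODE gene starts given below. PHF1's window, 33410764 to 33411063, lies after its GENCODE start at 33410399. The EED bases shown begin at 86244653, after the GENCODE start at 86244544. A missing match therefore holds for the windows searched only. SUZ12 also had a CCAAT box at -31 to -27, outside the stretch shown.

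Over the 10 genes, 6 had an E2F motif in at least 1 of their windows (AEBP2, EZH1, EZH2, MTF2, PHF19 and SUZ12), against 3.99% of 27305 genes and 3.31% of all 35116 windows. The 4 genes that rose made up 2 of these 6. CCAAT was found for 6 members (EED, EZH2, JARID2, PHF19, RBBP4 and SUZ12), 2 of which rose, against 39.7% of genes and 34.6% of windows. The cell cycle homology region, searched on both strands as TTTGAA and, in its other form, as TTCGAA, was found for SUZ12 alone among the members and in 16.4% of windows. The letters searched did not overlap one another, a match is no evidence of binding, and several members have more than 1 window (14 in all). The annotation deposited with the gene table listed EZH2 in 19 E2F motif sets, MTF2 in 17, EED in 13 and RBBP4 in 7, and no other member, against 847 of the genes tested (6.85%) with at least 1 such set.

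Levels of different genes were compared as TPM. In control cells RBBP4 was highest at 87.2 ± 1.33 TPM (mean ± SD, n = 3) and JARID2 lowest at 6.7 ± 0.262 TPM. Next to RBBP4 came SUZ12 (46.7 ± 1.96), PHF19 (46.2 ± 3.23) and EZH2 (45.0 ± 1.33), whose ranges over the samples overlapped. PHF19's place rests on length. Its control counts of 602 to 638 were below those of SUZ12 (1929 to 2093) and EZH2 (1076 to 1155). The 836-base transcript PHF19-201 was given 33.0% of its control counts, and that division is an estimate. MTF2 (32.3 ± 1.49 TPM) lay below SUZ12, PHF19 and EZH2. PHF1 (28.1 ± 1.39) and EED (27.2 ± 1.63) followed with overlapping ranges, and AEBP2 (19.6 ± 0.686) and EZH1 (16.6 ± 0.875) were separate. The 3 core subunits SUZ12, EZH2 and EED were therefore not at equal RNA levels, with EED below the other two in every sample. After 4HC the order was RBBP4 at 87.9 ± 1.44, then EZH2 (50.6 ± 0.915), PHF19 (50.3 ± 3.99) and SUZ12 (46.4 ± 1.56), then PHF1 (33.1 ± 0.225), EED (31.5 ± 1.03) and MTF2 (31.2 ± 1.5), then EZH1 (19.7 ± 0.707) and AEBP2 (19.2 ± 0.895), and JARID2 (6.06 ± 0.186). EZH2 thus moved from the fourth to the second place and EZH1 passed AEBP2, but the ranges of PHF19 overlapped with those of EZH2 and SUZ12, and those of AEBP2 with EZH1.

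**Figure D1:**
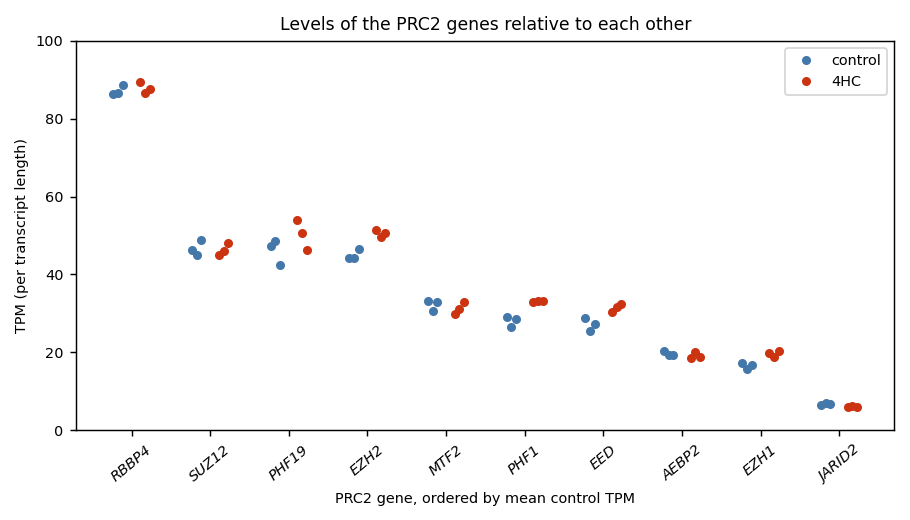
TPM (vertical axis, per transcript length) of each PRC2 gene in the 3 control (blue) and 3 4HC (red) samples, ordered by mean control level; each point is 1 sample. RBBP4 stood near 87 TPM and JARID2 near 6 TPM in both groups, with EZH2, PHF19 and SUZ12 side by side.

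Of the 10 members, 4 rose in 4HC-treated cells (EZH1, PHF1, EED and EZH2) and 0 fell at an adjusted p under 0.05 with edgeR's quasi-likelihood test (Benjamini-Hochberg over all genes tested). Over all genes tested, 36.4% passed that rule in either direction, 19.2% higher and 17.1% lower in 4HC. A count of 4 of 10 members in either direction is near that background, and the members' median log2 fold change was 0.07 (all genes 0.0), with a range of -0.12 to 0.25. DESeq2 called the same 4 genes. Over all genes it called fewer than edgeR, 1629 higher and 1605 lower, against 2379 and 2118. No member met the study's fold criterion (at least 2-fold with an unadjusted p under 0.05) when applied to edgeR's values. Of the 12368 genes tested, 142 (1.15%) met it. The paper reported far more genes by that stated criterion with DESeq2, and the source of the difference was not tested. The CPM of the groups did not overlap for 5 of the 10 members, against 45.3% of all genes tested. CPM are counts scaled to a common library total with TMM factors, and in a bulk sample a change in RNA per cell cannot be told apart from a change in the mix of cells. The labels do not say that the 3 samples of a group were separate cultures, so the p-values measure the spread between these samples, which may be technical.

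**Figure D2:**
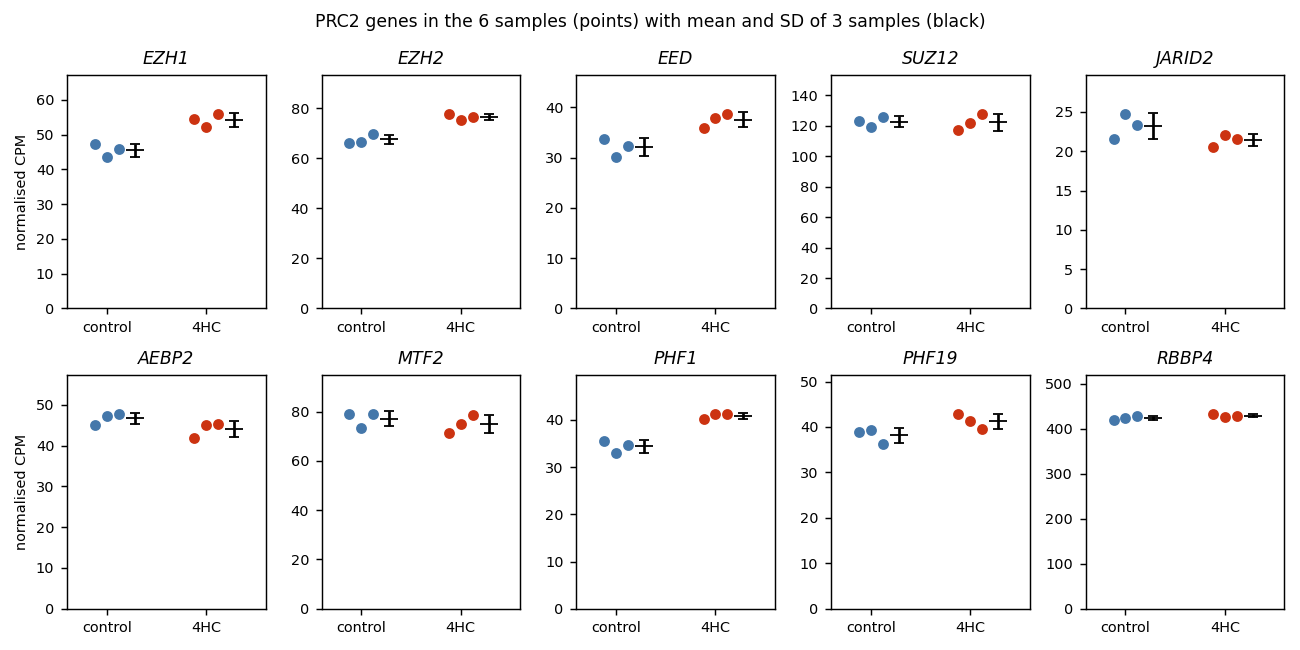
Normalised CPM (vertical axis from 0, a separate scale for each gene) of the 10 PRC2 genes in 3 control (blue) and 3 4HC (red) samples, with the mean and SD in black. The red points lie above all blue points in EZH1, EZH2, EED, PHF1 and PHF19, and the groups overlap in the other 5.

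Both catalytic subunits rose. EZH2 (NCBI Gene 2146, chr7:148807383-148884321 of GRCh38, minus strand, GENCODE release 29) was at 66.3, 66.7 and 69.7 CPM in the control samples and at 77.9, 75.5 and 76.4 CPM in the 4HC samples. Every treated sample lay above every control, and the means were 67.6 ± 1.84 and 76.6 ± 1.2 CPM. The log2 fold change was 0.18 (standard error 0.0454, 95% interval 0.09 to 0.27), a 1.13-fold difference (1.06 to 1.21), with an adjusted p of 0.00121 in edgeR's test. EZH2 is also in the study's hub gene list, which was drawn from these samples, gives no direction and is not independent evidence. That list was taken from genes reported as changed at least 2-fold, which the 1.13-fold difference here did not reach. The source of this disagreement was not tested.

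EZH1 (NCBI Gene 2145, chr17:42700275-42745049, minus strand) was at 47.2, 43.5 and 45.9 CPM in control and at 54.6, 52.2 and 56.1 CPM in 4HC. The groups were again apart, with means of 45.5 ± 1.91 and 54.3 ± 1.96 CPM. Its log2 fold change was 0.25 (standard error 0.0522, interval 0.15 to 0.36), or 1.19-fold (1.11 to 1.28), with an edgeR adjusted p of 9.34e-05. The EZH2 to EZH1 ratio of TPM was 2.56, 2.84 and 2.77 in control and 2.59, 2.63 and 2.49 in 4HC, and these ranges overlapped. The means were 2.72 ± 0.15 and 2.57 ± 0.0701, a log2 difference of -0.08 (exact permutation test, two-sided, p = 0.3, where 0.1 is the smallest p that 3 against 3 samples allow), so a shift in the balance of the catalytic subunits was not shown.

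Of the other core subunits, EED rose while SUZ12 and RBBP4 did not pass the test. EED (NCBI Gene 8726, chr11:86244544-86278813, plus strand) was at 33.8, 30.2 and 32.4 CPM in control and 35.9, 38.0 and 38.8 CPM in 4HC. All treated samples were above all controls, and the means were 32.2 ± 1.82 and 37.5 ± 1.53 CPM. The log2 fold change of EED was 0.22 (standard error 0.0592, interval 0.1 to 0.34), or 1.17-fold (1.08 to 1.27), with an edgeR adjusted p of 0.00215.

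SUZ12 (NCBI Gene 23512, chr17:31937018-32001045, plus strand), the scaffold, was at 123, 119 and 126 CPM in control and 117, 122 and 128 CPM in 4HC. These values interleave, and the log2 fold change was -0.01 (standard error 0.0408, interval -0.09 to 0.08, edgeR adjusted p = 0.936); its sign was positive with library size as the only scaling. RBBP4 (NCBI Gene 5928, chr1:32651142-32686211, plus strand) was at 419, 423 and 428 CPM in control and 433, 426 and 428 CPM in 4HC. RBBP4 had the narrowest interval of all members, with a log2 fold change of 0.02 (interval -0.04 to 0.08, edgeR adjusted p = 0.674). RBBP4 was the member whose counts were not whole in any of the 6 samples, while those of the others were whole in all 6, and values that are not whole arise where reads are divided between features. The 6 named RBBP4 pseudogenes and SYNC on the opposite strand, which shares 1706 exon bases (18.0% of RBBP4's) and rose by 1.32 on the log2 scale, are places where its reads could be split, and strand use in the counting is not given in the sources used here.

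Among the Polycomb-like subunits of PRC2.1, PHF1 rose, PHF19 fell short of the threshold and MTF2 overlapped between the groups. PHF1 (NCBI Gene 5252, chr6:33410399-33416453, plus strand) was at 35.6, 32.9 and 34.7 CPM in control and at 40.1, 41.3 and 41.2 CPM in 4HC. The groups were apart, with the 4HC samples close to one another. The means were 34.4 ± 1.4 and 40.8 ± 0.664 CPM, and the log2 fold change was 0.25 (standard error 0.0564, interval 0.13 to 0.36), or 1.19-fold (1.1 to 1.28), with an edgeR adjusted p of 0.000385. CUTA on the other strand shares 12 exon bases with PHF1 (0.334% of its exon bases) and had a log2 fold change of 0.13. The table placed PHF1 on an alternate scaffold, so its coordinates here are those of GENCODE.

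PHF19 (NCBI Gene 26147, chr9:120855652-120894896, minus strand) was at 39.0, 39.3 and 36.3 CPM in control and 42.9, 41.4 and 39.5 CPM in 4HC. The samples did not overlap, by a margin smaller than the spread within a group. The log2 fold change was 0.11 (standard error 0.0562, interval -0.0 to 0.23, edgeR adjusted p = 0.114, unadjusted 0.0508). MTF2 (NCBI Gene 22823, chr1:93079235-93139081, plus strand) was at 79.1, 73.5 and 78.9 CPM in control and 71.3, 75.1 and 78.8 CPM in 4HC. Its log2 fold change was -0.04 (interval -0.13 to 0.05, edgeR adjusted p = 0.531).

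Neither PRC2.2 subunit passed the test, and both had estimates below 0. JARID2 (NCBI Gene 3720, chr6:15246296-15522040, plus strand), which recruits the complex and is itself methylated by it, was at 21.5, 24.8 and 23.4 CPM in control and 20.6, 22.1 and 21.5 CPM in 4HC. The log2 fold change was -0.12 (interval -0.26 to 0.02, edgeR adjusted p = 0.197). The CPM ranges overlapped, whereas on the TPM scale the control samples (6.42 to 6.94) lay above the 4HC samples (5.91 to 6.27). AEBP2 (NCBI Gene 121536, chr12:19404045-19720801, plus strand), a zinc finger cofactor, was at 45.1, 47.2 and 47.8 CPM in control and 41.8, 45.1 and 45.2 CPM in 4HC, with a log2 fold change of -0.08 (interval -0.19 to 0.02, edgeR adjusted p = 0.226).

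**Figure D3:**
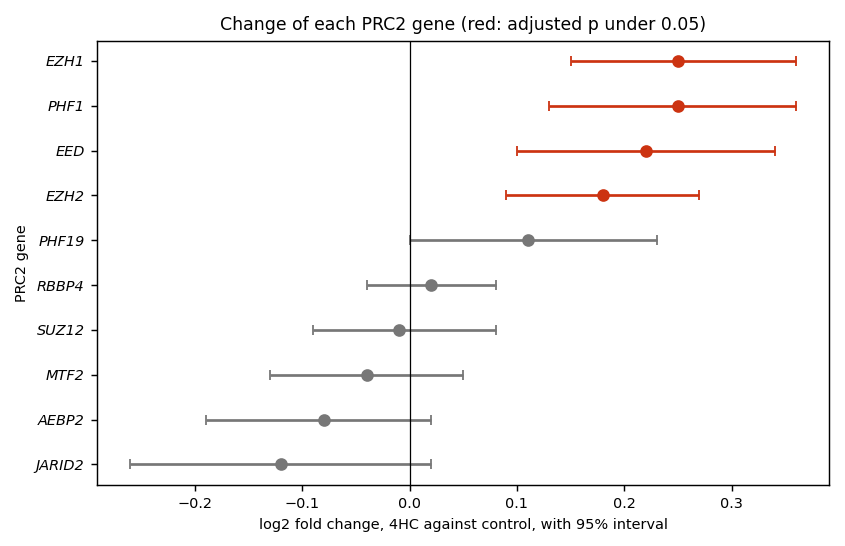
Log2 fold change of each PRC2 gene in 4HC against control (horizontal axis) with its 95% interval from edgeR; red marks an adjusted p under 0.05. EZH1, PHF1, EED and EZH2 have intervals above 0, between 0.09 at the lowest and 0.36 at the highest, and the other 6 reach or cross 0.

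Read out per transcript, the 10 genes had 76 transcripts in the table, 48 of them tested with edgeR. None passed at an adjusted p under 0.05 with edgeR (2 at an unadjusted p under 0.05, 1 each of EED and PHF1), and none of the 56 that DESeq2 tested did (4 unadjusted). The share over all transcripts tested was 1.29%. For EED, the 12-exon transcript EED-201 (2223 bases) carried 81.6 to 89.4% of the gene's counts, and its 4HC counts of 517, 521 and 527 all exceeded the control counts of 467, 439 and 438 (log2 fold change 0.22, edgeR adjusted p = 0.19). PHF1-202 gave 356, 406 and 405 counts in control and 438, 448 and 450 in 4HC, also apart (0.19 on the log2 scale, edgeR adjusted p = 0.394).

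RBBP4-202 carried 97.5 to 98.6% of RBBP4 counts, while the most abundant EZH2 transcript, EZH2-203 with 20 exons, carried 30.6 to 38.8% of EZH2 counts. SUZ12-204, with 15 exons, had 171, 234 and 198 counts in control and 137, 167 and 103 in 4HC, without overlap (log2 fold change -0.57, edgeR adjusted p = 0.46). Of the 23 transcripts with at least 10% of the counts of their gene, the counts of 18 overlapped between the groups, 4 were higher in every 4HC sample (EED-201, PHF1-201, PHF1-202 and the PHF19 transcript XM_024447507) and SUZ12-204 was lower, and their log2 fold changes ran from -0.57 to 0.90. The share of all transcripts without overlap was not computed, so these counts show nothing particular to the members. Among genes, 45.3% of those tested had CPM without overlap. The division of reads between transcripts of 1 gene is an estimate whose uncertainty the test does not hold: EZH1-202 took 55.2 to 83.7% of EZH1 counts among the samples, across the groups.

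Partners and erasers of the mark did not pass the test. Of 4 further PRC2 partners, RBBP7 (log2 fold change 0.06), a histone binder like RBBP4, the elongin-linked EPOP (0.02), and LCOR (-0.02) and LCORL (0.09), whose loci encode the PALI proteins, none was called by edgeR or DESeq2 and 0 had an unadjusted p under 0.05. EZHIP, an inhibitor of PRC2, was not found under that symbol in the deposited table. KDM6A, a demethylase of H3K27, had a log2 fold change of 0.02, and KDM6B, its relative, of -0.07, with 0 of these called by either tool and 0 at an unadjusted p under 0.05.

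Polycomb repressive complex 1 (PRC1) ubiquitinates histone H2A, and its CBX subunits bind the H3K27me3 that PRC2 makes. Of its 27 genes, 4 rose (14.8%) and 3 fell (11.1%) in 4HC, both below the shares of all genes tested (19.2% and 17.1%). The median log2 fold change of the 27 was -0.01 (all genes 0.0). CBX7, the largest change, was at 20.7, 25.7 and 22.3 CPM in control and 33.3, 36.6 and 33.7 CPM in 4HC. Its log2 fold change was 0.59 (edgeR adjusted p = 3.06e-10), and CBX2 rose by 0.18. CBX6 (-0.13) and CBX8 (-0.18) fell. The polyhomeotic subunit PHC1 rose from 35.9 ± 2.73 to 42.6 ± 0.507 CPM (0.25, edgeR adjusted p = 0.000464), and PCGF2 rose by 0.16. The catalytic pair RING1 (-0.01) and RNF2 (-0.05) did not pass the test. In the 15 alternative analyses the directions of these 6 genes (CBX7, CBX2, CBX6, CBX8, PHC1 and PCGF2) held, and CBX7, CBX8 and PHC1 passed in all 15, CBX2 in 13, CBX6 in 14 and PCGF2 in 7.

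The deubiquitinase PR-DUB reverses the mark of PRC1. Of its 11 genes 1 rose (9.09%) and 4 fell (36.4%), with a median of -0.05. Over all genes tested, 19.2% rose and 17.1% fell. KDM1B, a demethylase found with the complex, was at 35.3 ± 2.33 CPM in control and 30.6 ± 0.959 CPM in 4HC (-0.21, edgeR adjusted p = 0.00489). FOXK1 rose (0.16) and FOXK2 fell (-0.13), and HCFC1 and OGT fell by 0.1 and 0.08. DESeq2 called 3 of the 11, against 5 with edgeR. It also called fewer of all genes (1629 higher and 1605 lower, against 2379 and 2118). KDM1B passed in 15 of 15 alternatives, and FOXK1, FOXK2, HCFC1 and OGT in 8, 9, 5 and 7. The catalytic BAP1 was not called (0.09).

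Classic targets of PRC2 ranged widely in level, with a median control level of 0.573 TPM over the HOX genes and 0.457 TPM over the other developmental regulators in the table, and moved in both directions. Of 39 HOX genes, the body axis regulators, 29 were in the table and 16 could be tested, with 9 at 3 counts or fewer in every sample. Of the 16, HOXC13 (1.18) and HOXB13 (0.45) rose and HOXC9 (-0.36) and HOXC8 (-0.32) fell. That is 12.5% in each direction, below the shares of all genes tested (19.2% higher and 17.1% lower). HOXC13 was at 0.986, 1.35 and 0.724 CPM in control and 2.05, 3.02 and 1.9 CPM in 4HC, a low level. Of 51 other developmental regulators, 21 were tested, with 5 higher (23.8%, against 19.2% of all genes) and 1 lower (4.76%, against 17.1%). Their median was 0.13. NKX2-5, a cardiac factor, rose from 45.7 to 71.0 CPM (0.64), TBX2 by 0.53 and PAX3 by 0.35, and SOX17, an endoderm factor, fell from 549 to 443 CPM (-0.31). DESeq2 called 2 of the HOX genes and 4 of the regulators, against 4 and 6 with edgeR. It also called fewer of all genes (1629 higher and 1605 lower, against 2379 and 2118). HOXC8 and HOXC9 were not called without control replicate 2, HOXC9 without 4HC replicate 3, and HOXB13 without control replicate 1 or 4HC replicate 2, and PAX3 passed in 6 of 15 alternatives.

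The table's own annotation marks 540 genes as bound by SUZ12 and EED and carrying H3K27me3 in human embryonic stem cells. Their median level in control was 0.175 TPM, and 163 had 3 counts or fewer in every sample. Of 246 tested, 47 rose (19.1%) and 35 fell (14.2%), near the shares of all genes, and the median change was 0.06 on the log2 scale. HES2 rose from 1.85 to 10.5 CPM (2.50) and NTN1, an axon guidance ligand, from 16.4 to 49.9 CPM (1.61), while RIMBP3 rose by 1.86 at 1.45 CPM in 4HC and did not pass with DESeq2. With DESeq2, 30 of these genes rose and 27 fell. DESeq2 also called fewer of all genes, 1629 higher and 1605 lower, against 2379 and 2118 with edgeR. Among genes annotated as raised after EZH2 knockdown in an ovarian cancer line, 66 of 239 tested rose (27.6%) and 30 fell (12.6%), led by BIK (1.28, from 0.49 to 1.2 CPM and not called by DESeq2), OCEL1 (1.06) and PARD6A (0.60). Of those annotated as lowered, 66 of 335 rose (19.7%) and 87 fell (26.0%). Over all genes tested, 19.2% rose and 17.1% fell. A second annotated pair gave the opposite lean. Of 812 genes raised by EZH2 loss, 136 were higher (16.7%) and 174 lower (21.4%). Of 922 genes lowered by it, 285 were higher (30.9%) and 171 lower (18.5%). Several of these shares lie near those of all genes. H3K27me3 itself was not measured in these samples.

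Genes of the cell cycle moved in the same samples. Over all genes tested, 19.2% rose and 17.1% fell. Of 20 S phase genes driven by E2F, 13 rose (65.0%) and 2 fell (10.0%), with a median of 0.21. They were led by the sliding clamp PCNA (275 to 567 CPM, 1.04), CDT1 (0.97) and RRM2 (0.84). Their summed level was 2000 to 2080 TPM in control and 2890 to 2900 TPM in 4HC. Of 21 mitotic genes, 7 rose (33.3%) and 9 fell (42.9%), with a median of -0.03. PLK1 (-0.73), CDC20 (-0.66) and CCNB1 (-0.57) were among those that fell, and MYBL2 (0.4) and FOXM1 (0.37) among those that rose. The summed level of the mitotic genes was 2080 to 2190 TPM in control and 2160 to 2180 TPM in 4HC. Of the 4 members with an E2F set in the annotation, EZH2 and EED rose (0.18 and 0.22) and MTF2 (-0.04) and RBBP4 (0.02) did not pass the test. EZH1 and PHF1, which rose by 0.25 each, carried no such set, although the EZH1 promoter window holds an E2F motif. The part of the cell cycle genes in the PRC2 values was not tested.

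**Figure D4:**
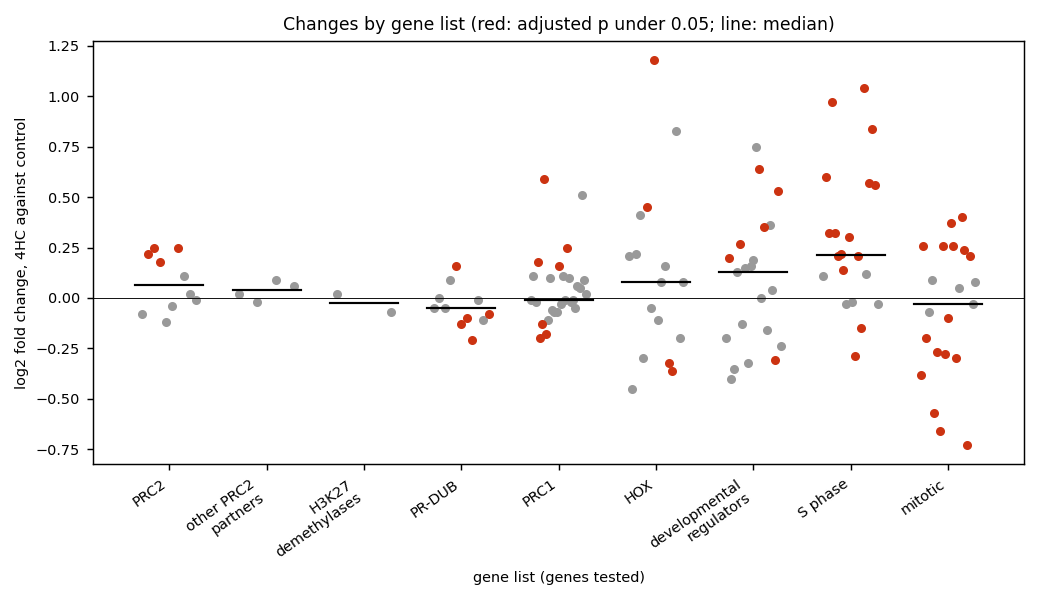
Log2 fold change in 4HC against control (vertical axis) for each tested gene of the PRC2 members and the other lists (horizontal axis); each point is 1 gene, red marks an adjusted p under 0.05 and the line is the list's median. The PRC2 points lie between -0.12 and 0.25, and the S phase list reaches 1.04 and the mitotic list -0.73.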

How the data were processed

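RNA-seq of 3 control and 3 4HC samples of COV434 was used. The authors filtered reads with SOAPnuke on the Dr. Tom system, and the submitters' processing notes name HISAT2, Bowtie2, RSEM 1.3.1, DESeq2 1.4.5 and GRCh38.p13 without their roles. The authors deposited expected counts, not normalized, for 16798 genes and 79213 transcripts, and 85.5% of gene counts were whole (tolerance 0.005). The deposited TPM and FPKM values were scaled to length and library by the authors. Columns of the authors' comparison (log2 fold changes, p-values and q-values) and a second gene table with the same values were not used.

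Expected counts were rounded and fitted with edgeR 4.0.16 in R 4.3.3 (TMM, filterByExpr, quasi-likelihood test, condition as the only term), with Benjamini-Hochberg adjustment over all 12368 genes or 42216 transcripts, called at 0.05. The members and the lists were chosen with earlier results of these data known. Lists were compiled by hand, or read from the table's annotation. Text names every member, every gene of the partner, demethylase, SWI/SNF and granulosa lists, the 3 called genes with the largest change in each other list (from a group mean of 1 CPM upwards), and member transcripts with at least 10% of their gene's counts (by count and range, with examples). CBX2, CBX6, CBX8, PCGF2, RING1, RNF2, BAP1, HCFC1, OGT, HOXC8, SOX17, MYBL2, FOXM1, CUTA and SYNC were added after their values were seen. A gene that this rule would name is not reported here. Promoters came from RefSeq on GRCh38.p14 and gene positions from GENCODE release 29.

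Alternatives were DESeq2 1.42.0, its size factors in edgeR, library size only, no filter, a minimum of 10 counts per sample, a block for the replicate number, limma 3.58.1 on log2 of TPM or FPKM with a pseudocount of 1 (TPM also 0.1), and removal of each sample in turn. The fit was first tested on simulated data. Python 3.11.15 with pandas 2.3.3, scipy 1.17.1 and matplotlib 3.10.9 was used. At this depth 3 counts were 0.18 to 0.186 CPM.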

Additional observations from a re-analysis of the deposited data

How the results depend on the processing

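The 4 risen members (EZH1, EZH2, EED and PHF1) passed in all 15 alternatives, with log2 fold changes of 0.22 to 0.28, 0.16 to 0.2, 0.18 to 0.26 and 0.22 to 0.27, and the other 6 passed in none. SUZ12 changed sign at values close to 0, to 0.015 with library size only and 0.019 with limma on log2 FPKM plus 1. Over the removals of 1 sample it ran from -0.039 to 0.022, positive without control replicate 3 (0.016) and without 4HC replicate 1 (0.022). The count of all genes lower in 4HC was 1343 in the FPKM analysis against 2118 with edgeR and TMM, and the cause was not tested. Same-numbered samples of the groups did not deviate together (correlations -0.0245, 0.0458 and 0.0651), and with a replicate block 4 members were higher and 0 lower, with 2259 genes higher and 1954 lower over all genes. Counts of the other lists moved by over 1.5 times in 33 cases, among them the annotated PRC2 targets (30 higher with DESeq2, against 47) and the HOX genes (0 lower without control replicate 2, against 2). Over all genes, DESeq2 called 1629 higher and 1605 lower, against 2379 and 2118 with edgeR. For members that missed the threshold, the intervals in the report bound the change, and a missed threshold does not show that there was none.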
